A study of Arabidopsis thaliana with 12 samples.

Results

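Untreated seedlings that over-express Zat12 were set against untreated wildtype seedlings, 3 arrays against 3. These are 6 of the 12 arrays of a study of hydrogen peroxide stress and Zat12 in Arabidopsis thaliana, and they were chosen by their labels alone. All 22746 probe sets of the array that are not hybridisation or labelling controls were taken, of 22810 in all. All groups were 5 day old seedlings of the Columbia background in liquid MS medium, and no agent was given to either untreated group. The Zat12 seedlings carried a transgene for At5g59820, the Zat12 gene, behind the 35S promoter of cauliflower mosaic virus, which is active in most plant tissues. The other 6 arrays came from both genotypes after 1 hour in 20 mM H2O2 and served here as the comparison under treatment. The labels do not tell how many transgenic lines the Zat12 arrays stand for, nor whether wildtype carried an empty vector.

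Zat12 is a small nuclear protein with a pair of C2H2 zinc fingers and a repressor motif, and its transcript is known to accumulate after oxidative stress, cold, heat, strong light and wounding. Plants take hydrogen peroxide as a signal and remove it with ascorbate peroxidases, catalases and related enzymes, while superoxide dismutases, some of which need copper, make it from superoxide. A comparison without treatment asks which transcripts differ when the factor is present before any stress is applied.

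Each value is the signal of a probe set, a linear microarray intensity that the authors had scaled to the same average on every array. Such scaling hides a shift shared by most transcripts. Differences are given on the scale of log2(signal + 3) as Zat12 minus wildtype, which understates changes at low signal, and a probe set was called at a limma adjusted p below 0.05. The labels do not say whether replicates were separate cultures, and p-values therefore measure only how far these arrays differed, in part perhaps technically. Replicates of the untreated groups correlated at 0.967 to 0.981 across probe sets, as log2 signal. The array labelled Zat12 replicate 2 had no value for 28.1% of the probe sets, which therefore rest on 2 Zat12 arrays. The untreated wildtype arrays had 25S ribosomal RNA control signals of 55.9, 32.9 and 125, and the untreated Zat12 arrays 147, 275 and 96.3, so these groups overlapped. Their 3' to 5' ratios of the Arabidopsis actin control were 9.50, 6.36 and 3.85 in wildtype and 5.56, 4.23 and 4.76 in Zat12, which overlapped as well. Both overlaps came from wildtype replicate 3 alone.

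The over-expressed transcript itself was checked first. The probe set for ZAT12 had a signal of 49.5, 52.0 and 46.2 on the 3 wildtype arrays. On the 3 Zat12 arrays it was 536, 556 and 589. Every array labelled Zat12 thus lay far above every array labelled wildtype, and the ratio of the mean signals was 11.4. The log2 difference was 3.43 (SE 0.12, limma adjusted p = 1.18e-11). Wildtype seedlings also raised this signal on their own after H2O2, to 204, 286 and 267. Untreated Zat12 seedlings stood above that level on all 3 arrays without any peroxide.

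Few transcripts of the nuclear genome were called between the untreated genotypes, with 3 arrays in each group. Of 7289 nuclear probe sets with 1 annotated gene and a signal above the filter, 34 were called higher and 34 lower in Zat12, 0.466% in each direction and 0.933% in all. An unadjusted limma p below 0.05 was reached by 845 of the 7289, so few calls do not mean that few transcripts differed. By at least 2-fold 13 were higher (0.178%) and 4 lower (0.0549%). Among all 13647 probe sets tested, 99 were higher (0.725%) and 68 lower (0.498%), 1.22% together. Besides the nuclear genes these held 27 plastid-encoded probe sets, all higher and described apart below, and 65 probe sets that the annotation leaves without a gene, 33 higher (0.549%) and 32 lower (0.533%). The groups of arrays did not overlap for any of the 68 called nuclear probe sets, and 18.0% of all nuclear probe sets met that condition. It was also required of the probe sets named below for their large differences. For these a lack of overlap is a description and no separate evidence.

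**Figure D1:**
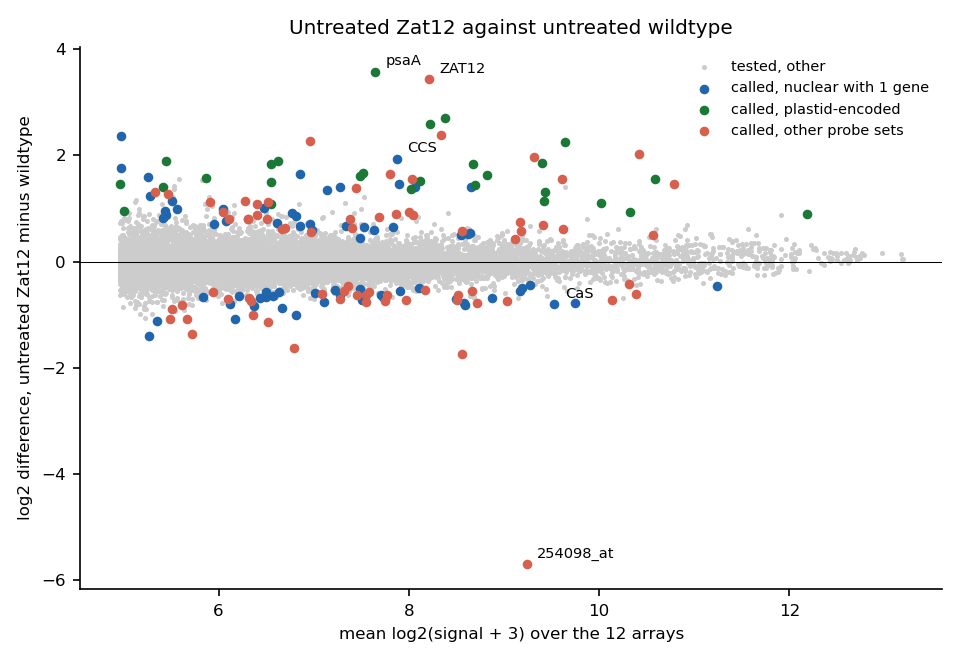
Log2 difference between untreated Zat12 and untreated wildtype (vertical axis) against the mean log2(signal + 3) over the 12 arrays (horizontal axis) for the 13647 tested probe sets, grey where not called. The ZAT12 probe set lies at 3.43 and psaA at 3.58 above a narrow band of uncalled probe sets, and 254098_at lies alone at -5.70.

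The nuclear gene with the smallest adjusted p was CCS (AT1G12520), the chaperone that delivers copper to copper/zinc superoxide dismutase. Its signal was 113, 128 and 104 on the wildtype arrays. It was 412, 473 and 466 on the Zat12 arrays, so the lowest Zat12 array was more than 3 times the highest wildtype array. The log2 difference was 1.94 (SE 0.13, limma adjusted p = 1.09e-07). ARPN (AT2G02850), a plantacyanin, which is a small blue copper protein of the cell exterior, rose by 0.72 (SE 0.16, limma adjusted p = 0.0298). Its wildtype signals of 69.3, 97.0 and 78.6 lay close below the Zat12 signals of 143, 109 and 161. This call was lost in 7 of 24 alternatives, among them leaving out wildtype replicate 1 or 3 or Zat12 replicate 1 or 3 (limma adjusted p up to 0.155). The copper amine oxidase AT3G43670, which oxidises polyamines and yields hydrogen peroxide, fell by 0.88 (SE 0.13, limma adjusted p = 0.00205).

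Calls among copper genes went both ways. Of 40 genes listed for copper proteins and copper economy 9 had a named probe set, and 8 probe sets were tested. The 2 rises and the 1 drop just described were the calls among them, 37.5% beside 0.933% of all nuclear probe sets, and the median difference was 0.03 beside 0.00. The iron-deficiency peptide gene AT1G47400 rose by 1.15 (SE 0.21, limma adjusted p = 0.0126), with 30.4, 38.1 and 29.9 in wildtype and 86.0 and 67.2 on the 2 Zat12 arrays with a value. It was not called without wildtype replicate 1 or Zat12 replicate 1, without the filter, or with the 25S covariate (limma adjusted p up to 0.184). That covariate is the log2 signal of the 25S control on each array, added to the model. Of 2 tested members of the separate list for iron uptake and storage, 0 were called by limma and 1 had an unadjusted p below 0.05, PYE, an iron-deficiency transcription factor, at 0.37.

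The tested enzymes that remove reactive oxygen gave no call. Of 32 genes listed, 7 were tested, among them glutathione reductases and ascorbate peroxidases. Limma called 0 of the 7, beside 0.933% of all nuclear probe sets, and 0 had an unadjusted p below 0.05. At that share 0 calls among 7 say little about these enzymes. Their differences ran from -0.17 to 0.10 with a median of 0.00, and other genes of the list had no named probe set here.

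Some late embryogenesis abundant (LEA) genes rose in Zat12. LEA proteins are small hydrophilic proteins that accumulate in maturing seeds and in drying vegetative tissue, where they protect membranes and enzymes. Of 51 LEA loci 35 had a named probe set and 22 were tested. The list was put together after values were seen, so its direction is no independent evidence. Of the 22, 6 rose and 0 fell, 27.3% beside 0.933% of all nuclear probe sets, and 17 differences were above 0 with a median of 0.67. The 13 probe sets below the filter had a median wildtype signal of 6.47 and a median Zat12 signal of 9.32, and 7 of the 13 had the higher mean in Zat12.

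AT3G02480, a LEA gene, had a signal of 178, 291 and 197 in wildtype and of 613, 616 and 511 in Zat12, and its log2 difference was 1.40 (SE 0.24, limma adjusted p = 0.0069). AT3G15670 had 145, 172 and 157 against 435, 504 and 339, with the same log2 difference to 2 decimals, 1.40. AT3G17520 had 103, 141 and 63.1 against 271, 289 and 204, a difference of 1.34. In all 3 genes the lowest Zat12 array lay above the highest wildtype array, and wildtype replicate 2 was the highest wildtype array. LEA18 (AT2G35300) rose by 1.41 on 2 Zat12 arrays, the dehydrin LEA (AT2G21490) by 1.02 and AT4G21020 by 0.98, with limma adjusted p between 0.0126 and 0.0427.

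Other members leaned the same way without a call. AT4G36600 differed by 1.42 (SE 0.43, limma adjusted p = 0.147), AT5G66780 by 1.09, AtLEA4-1 by 0.94, AT5G44310 by 0.86 and LEA4-5 by 0.84. The dehydrins of the cold response were on the other side of 0, COR47 at -0.40 and LTI30 at -0.36, and neither was called (limma adjusted p = 0.122 and 0.238). Summed up per array, the median centred log2 signal of the 22 was -0.39, 0.00 and -0.58 in wildtype and 0.47, 0.67 and 0.11 in Zat12, so the groups did not overlap. For a list put together after values were seen, this too is no independent evidence.

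Outside the LEA list a membrane protein gene and a storage-type gene rose. AT1G04560, which codes for an AWPM-19 type membrane protein, rose by 1.46 (SE 0.25, limma adjusted p = 0.00784), from 138, 197 and 123 to 499.8 and 346 on the 2 Zat12 arrays with a value. AT2G28490, a cupin related to seed storage proteins, rose by 1.23 (SE 0.26, limma adjusted p = 0.028), from 26.2, 21.3 and 22.4 to 66.1 and 51.8. Of the 8 seed and embryo markers listed, such as oleosins and storage albumins, 0 had a named probe set, so no level of theirs can be set beside these genes.

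The LEA calls depended on single arrays. Without Zat12 replicate 1, limma called 0 of the 22, at a median of 0.79 with 16 differences above 0. Without wildtype replicate 1 or Zat12 replicate 2, 1 was called, and without wildtype replicate 3, 4 rose and 1 fell. AT1G04560 was lost without Zat12 replicate 1 (limma adjusted p = 0.142). AT2G28490 was lost without wildtype replicate 1 or 2 or Zat12 replicate 1 or 3, with adjusted p up to 0.258.

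**Figure D2:**
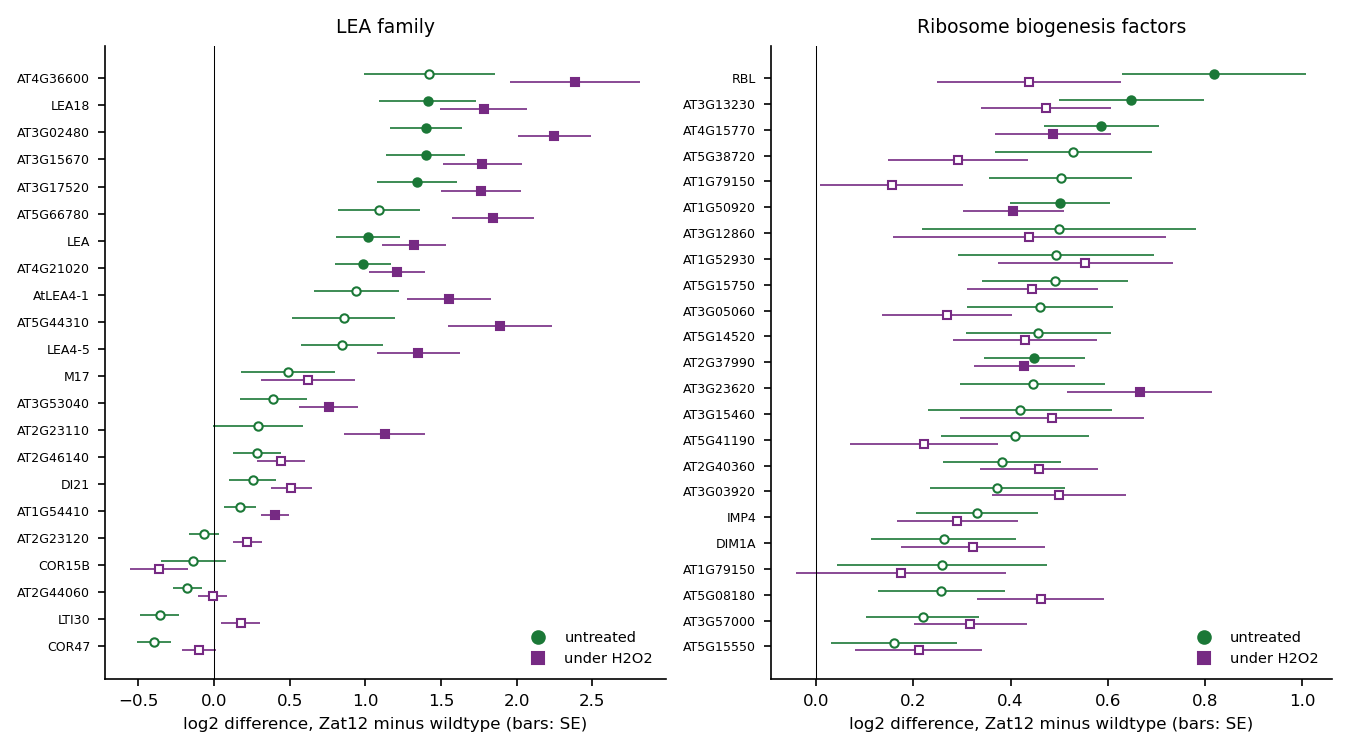
Log2 difference between Zat12 and wildtype for each tested LEA gene (left) and each tested ribosome biogenesis factor (right), without treatment (green circles) and under H2O2 (purple squares), with bars for the SE and filled symbols for calls at a limma adjusted p below 0.05. In untreated seedlings 17 of 22 LEA genes and 23 of 23 biogenesis probe sets lie above 0.

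Several single genes of other kinds rose. AT3G54940, a papain-type cysteine protease, had 53.4, 47.5 and 62.0 in wildtype and 167, 212 and 156 in Zat12. It rose by 1.66 on the log2 scale (SE 0.20, limma adjusted p = 3.46e-04). The gene AT2G04050 codes for an efflux carrier of the MATE type and had 9.09, 3.68 and 21.5 in wildtype and 48.0, 71.2 and 69.0 in Zat12. All Zat12 arrays lay above all wildtype arrays for both genes, but the wildtype signals of the carrier were near the offset, so its difference of 2.37 (SE 0.44) was 2.85 where no offset was added and 1.73 at an offset 4 times as large. The wildtype signals of the carrier also lay below the filter signal of 28.1, so it passed the filter through other groups. It was not called without wildtype replicate 1 (limma adjusted p = 0.0508) or with the 25S covariate (0.119). AT4G12490, a lipid transfer-like protein of the cell surface, rose by 0.98 (SE 0.16, limma adjusted p = 0.00561, or 0.0544 without Zat12 replicate 1).

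For AT5G49440 and AT5G47455 no role is given here. The former had 6.86, 6.34 and 21.4 in wildtype and 53.5, 29.0 and 45.2 in Zat12, a difference of 1.76 (SE 0.36), and the latter 19.0, 9.20 and 21.5 against 52.0, 58.7 and 49.5, a difference of 1.59 (SE 0.26). Their wildtype signals were low as well, so both sizes depend on the offset. All of these wildtype signals lay below the filter signal of 28.1, so both genes passed the filter through other groups. AT5G49440 was not called in 5 of 15 alternatives, among them leaving out wildtype replicate 1 or 2 (limma adjusted p up to 0.198 over the 5), and AT5G47455 was not called with the 25S covariate (0.106). Among 8 heat shock proteins and co-chaperones tested, AT5G37670, a small heat shock protein, rose by 0.71 (SE 0.15, limma adjusted p = 0.0298). Its signal of 11.4, 12.1 and 14.9 in wildtype against 18.4, 22.9 and 27.8 in Zat12 was low in both, and it passed the filter through the H2O2 arrays, where it averaged 150.6 and 232. It was not called in 9 of the 22 alternatives that tested it. The Hsp70 co-chaperone Fes1A differed by 0.26 and the small heat shock protein AT5G51440 by -0.80, and neither was called (limma adjusted p = 0.483 and 0.252).

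A few genes for making ribosomes rose by small amounts. The list holds 39 nucleolar factors that process and assemble ribosomal RNA and subunits, and it too was put together after values were seen, so its direction is no independent evidence. For 22 of them a probe set was named, and 23 probe sets were tested. Of the 23, 5 rose and 0 fell, 21.7%, all 23 differences were above 0, and the median was 0.45, while nuclear probe sets as a whole had 3656 differences above 0 and 3633 below.

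The called genes were RBL (0.82), AT3G13230 (0.65), AT4G15770 (0.59), AT1G50920 (0.50) and AT2G37990 (0.45), with limma adjusted p between 0.0224 and 0.0457. AT4G15770, for which yeast has the 60S subunit factor Nip7, had 140.2, 172 and 180.0 in wildtype and 237, 256 and 247 in Zat12. AT1G50920, a nucleolar GTPase related to yeast Nog1, had 347, 330.2 and 398 against 489, 519 and 514. The groups did not overlap in either gene, and each difference was under 2-fold. The median stayed between 0.38 and 0.48 in every alternative run, but the calls did not: 0 were called in the fit on the 6 untreated arrays, with the 25S covariate, or without Zat12 replicate 1 or 2. Without wildtype replicate 1 or Zat12 replicate 3 only 1 was called, and without any of wildtype replicates 2 and 3 or 5 of the 6 treated arrays 2 were.

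Among the transcripts that fell were both thylakoid and mitochondrial genes. CaS (AT5G23060), the calcium-sensing protein of the thylakoid membrane, had 1214, 1028 and 1124 in wildtype and 611, 669 and 649 in Zat12. All Zat12 arrays lay below all wildtype arrays, and the signal fell by 0.80 on the log2 scale (SE 0.10, limma adjusted p = 4.36e-04). LHCB4.3 (AT2G40100), a minor light-harvesting protein of photosystem II, had 241, 220.3 and 256 against 143, 143 and 144 and fell by 0.72 (SE 0.11, limma adjusted p = 0.00192). Of the same family LHCB4.1 and LHCB4.2 were not called, with LHCB4.1 at 0.16 and LHCB4.2 at 0.26. Of 9 nuclear photosynthesis genes tested, 0 rose and 2 fell, 22.2%, and the median was 0.07.

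AT2G21640, a mitochondrial protein whose transcript is widely used as a marker of oxidative stress, fell by 1.08 (SE 0.17, limma adjusted p = 0.00345). It had 94.9, 82.4 and 123 in wildtype and 40.03, 49.3 and 46.9 in Zat12, less than the lowest wildtype array on every Zat12 array. The other 2 tested genes of the list for mitochondrial stress were not called.

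The named genes that fell also included a protease, a peroxidase, a lipase and a lectin. AT1G09750, an aspartyl protease, had 1328, 1159 and 1374 in wildtype and 755, 813 and 691 in Zat12 and fell by 0.77 (SE 0.11, limma adjusted p = 0.00116). AT2G37130, a class III peroxidase, fell by 0.77 as well (SE 0.14), with 706, 729.7 and 723 against 392 and 451 on the 2 Zat12 arrays with a value. The groups were clear of each other in both genes. AT4G28780, a lipase of the GDSL type, fell by 1.00 (SE 0.15) and the jacalin-type lectin AT1G52070, a root gene, by 0.80 (SE 0.18). AT4G28780 and AT2G37130 were not called without Zat12 replicate 1 (limma adjusted p = 0.0703 and 0.148), and AT1G52070 was not called in 9 of 24 alternatives. It was the 1 called of 4 root markers tested, whose median was 0.15. Of the uncalled ones the peroxidases AT1G30870 and AT4G26010 differed by 0.52 and 0.39 and the last by -0.08. Of 2 root hair expansins limma called 0, with EXPA7 at 0.57 and EXPA18 at 0.36, and 1 had an unadjusted p below 0.05.

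Enzymes that conjugate small molecules fell in single cases. UGT78D1 (AT1G30530), which adds rhamnose to flavonols, had 160.4, 147 and 162 in wildtype and 74.3, 114 and 76.8 in Zat12, a fall of 0.83 (SE 0.17, limma adjusted p = 0.0265). GSTU20, a glutathione transferase, fell by 0.76 (SE 0.18, limma adjusted p = 0.0481) and AT5G02890, an acyltransferase of the HXXXD family, by 0.69 (SE 0.14, limma adjusted p = 0.0252). GSTU20 was not called in 17 of 24 alternatives and UGT78D1 and AT5G02890 in 7 each, so these calls lie near the threshold. Of 27 UDP-glycosyltransferases tested UGT78D1 was the 1 called (3.7%), with a median of 0.10 over the 27. Of 8 glutathione transferases GSTU20 was the 1 called (12.5%), with a median of -0.15. The share over all nuclear probe sets was 0.933%, and each family share rests on 1 call.

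For the rest of the largest drops no role is given here. AT4G17250 had 21.7, 33.6 and 27.1 in wildtype and 9.17, 12.2 and 4.92 in Zat12, and fell by 1.41 (SE 0.25, limma adjusted p = 0.00972), a size that ranged from -1.72 without an offset to -0.93 at 4 times the offset. Both untreated groups averaged below the filter, and this gene passed it through the H2O2 arrays. AT1G73120 fell by 0.82 (SE 0.14), AT1G12080 by 0.71 (SE 0.15) and AT2G39500 by 1.12 (SE 0.26). AT2G39500 had 2 Zat12 arrays and was not called in 15 of 22 alternatives, AT1G12080 was not called in 8 of 24 and AT1G73120 in 2, without Zat12 replicate 1 and with the 25S covariate.

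**Figure D3:**
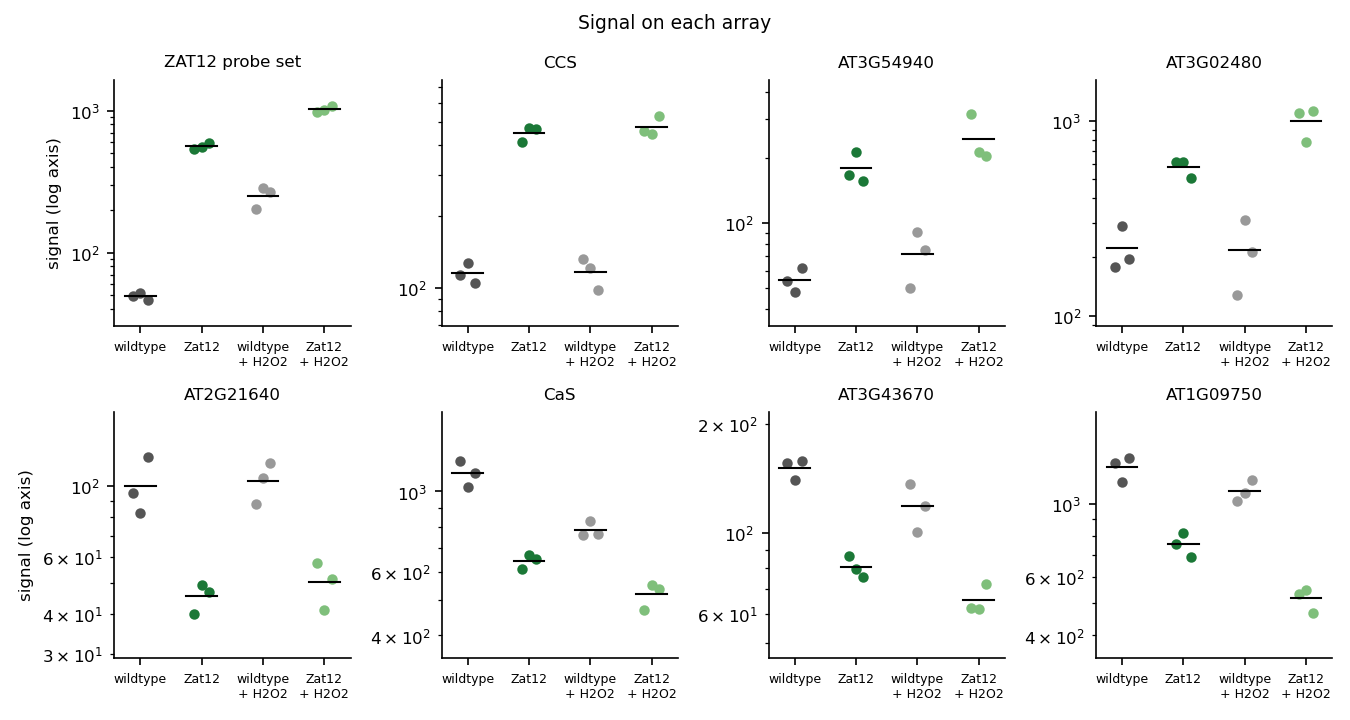
Signal on each array (points, log axis) with the group mean (line) for 8 probe sets, untreated groups first and H2O2 groups after them, 3 arrays in each. ZAT12, CCS, AT3G54940 and AT3G02480 are higher and AT2G21640, CaS, AT3G43670 and AT1G09750 lower on every untreated Zat12 array than on every untreated wildtype array.

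The tested genes of other stress-related families gave no call. Of the 3 tested genes of the cold response 0 were called by limma and 2 had an unadjusted p below 0.05, with a median of -0.36. Of 2 related C2H2 zinc finger repressors 0 were called and 1 had an unadjusted p below 0.05, with STZ, also known as ZAT10, at -0.42 and AT2G28200 at -0.54. Of 3 stress WRKY factors 0 were called and 0 had an unadjusted p below 0.05, and WRKY53 at 0.51 differed most. Limma also called 0 of 8 cytochrome P450s, 0 of 10 glutaredoxins and thioredoxins and 0 of 21 extensins, expansins and xyloglucan enzymes, with 1, 0 and 5 at an unadjusted p below 0.05. Over all nuclear probe sets the share called was 0.933%, so 0 calls in groups of these sizes say little about a family. Both tested reference genes were not called, and AT4G34270 differed by 0.23.

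Some of the clearest differences belonged to probe sets without an annotated gene. Probe set 266165_at had 701, 604 and 676 in wildtype and 2657, 2752 and 2685 in Zat12, and it rose by 2.03 on the log2 scale (SE 0.10, limma adjusted p = 2.04e-09). Probe set 254098_at had 3454, 4067 and 3284 in wildtype and 38.8 and 110.4 on the 2 Zat12 arrays with a value. Each Zat12 array was thus far below each wildtype array, and the signal fell by 5.70 on the log2 scale (SE 0.41, limma adjusted p = 6.81e-07). Probe set 246099_at rose by 1.96 (SE 0.24) on 2 Zat12 arrays, and 251733_at fell by 1.73 (SE 0.25).

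Transcripts of the plastid genome were higher as a group in untreated Zat12. Plastids carry their own genes for photosystem subunits, the ATP synthase, an NADH dehydrogenase-like complex and part of the translation machinery, and transcribe them with polymerases of their own. Of 69 plastid-encoded probe sets 56 were tested, and 27 rose and 0 fell, 48.2% of the 56. All 56 differences were above 0, from 0.06 to 3.58, with a median of 0.94. Of the 13 below the filter 12 had the higher mean in Zat12.

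The photosystem I core gene psaA had 13.7, 26.7 and 99.3 in wildtype and 609, 459 and 302 in Zat12, and it rose by 3.58 (SE 0.45, limma adjusted p = 3.72e-04). The photosystem II antenna gene psbC had 41.6, 56.5 and 212 against 626, 618 and 403, a difference of 2.71. The other core gene of photosystem I, psaB, had 188, 229 and 386 against 1672, 1223 and 897, a difference of 2.25. In all 3 genes wildtype replicate 3 was the highest wildtype array and Zat12 replicate 3 the lowest Zat12 array, without overlap.

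petL of the cytochrome b6f complex rose by 2.59, psbT of photosystem II by 1.90 and atpH of the ATP synthase by 1.89. psbT was not called in 3 of 21 alternatives (limma adjusted p up to 0.0871) and atpH in 2 of 23 (up to 0.106). Both were lost without Zat12 replicate 1 and with the 25S covariate, while petL was kept in all 23. The wildtype mean of psbT, 13.3, lay below the filter signal of 28.1, so psbT passed the filter through other groups. By complex, 3 of 5 photosystem I genes, 8 of 14 photosystem II genes, 2 of 3 cytochrome b6f genes, 4 of 5 ATP synthase genes and 4 of 6 NADH dehydrogenase-like genes rose. Of 13 plastid ribosomal proteins 3 rose, with a median of 0.57, and of 3 subunits of the plastid RNA polymerase 0 were called by limma and 1 had an unadjusted p below 0.05, with a median of 0.34.

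The plastid measure was set beside array quality. The median centred log2 signal of the 56 was -0.87, -1.13 and -0.41 on the wildtype arrays and 0.37, 0.44 and -0.01 on the Zat12 arrays, and within both untreated groups the arrays had the same order by this measure and by 25S signal. The treated wildtype arrays also had the same order, with plastid values of 0.75, 0.46 and 0.28 at 25S signals of 295, 274 and 126. The treated Zat12 arrays did not, with plastid values of 0.42, 0.06 and -0.13 at 25S signals of 260.5, 286 and 133. The untreated groups do not overlap in the plastid measure, while their 25S signals and actin ratios do overlap. With the 25S covariate the count of calls was 4, at a median of 0.66, and without Zat12 replicate 1, wildtype replicate 1 or Zat12 replicate 2 the count was 6, 15 or 14. Without wildtype replicate 2 it was 18. The 9 nuclear photosynthesis genes had a median of 0.07. Whether RNA composition or integrity took part in it was not tested.

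**Figure D4:**
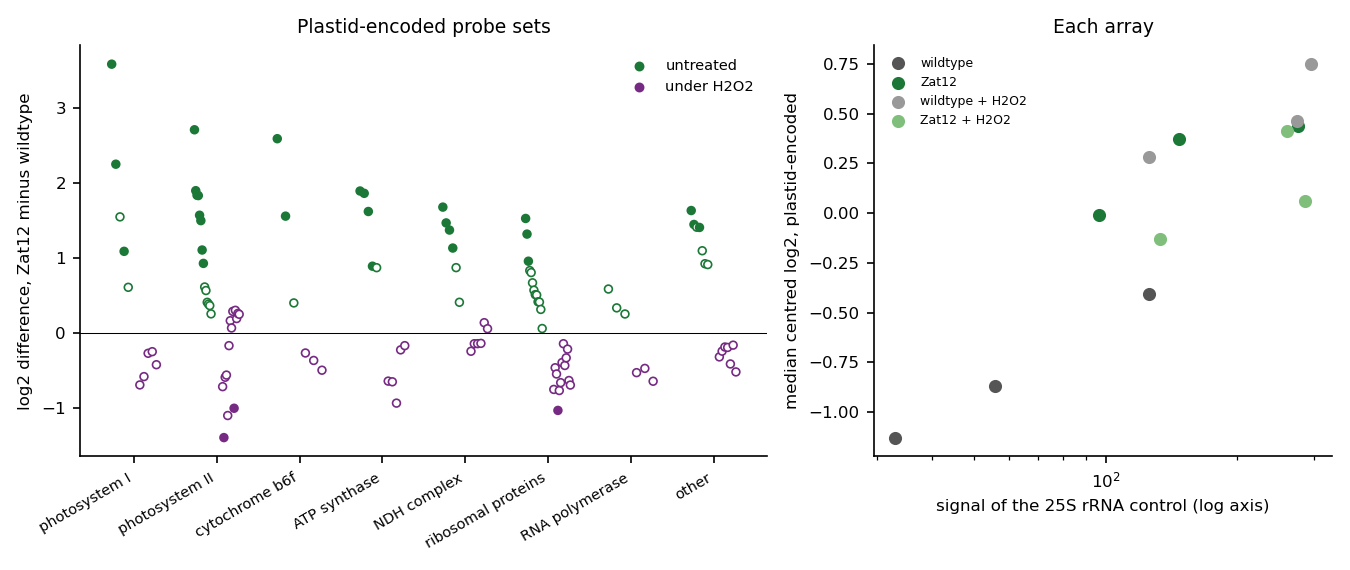
Left, log2 difference between Zat12 and wildtype for the 56 tested plastid-encoded probe sets by complex, without treatment (green) and under H2O2 (purple), filled where called. Right, median centred log2 signal of the same 56 against the 25S control signal (log axis) on each of the 12 arrays, where the 3 untreated wildtype arrays lie lowest, at -1.13 to -0.41.

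The genotypes were also compared under H2O2, on 6 other arrays. Of the 68 nuclear probe sets called without treatment, 60 had the same sign there, beside 58.1% of all nuclear probe sets. In the same direction 37 were called in both comparisons, 20 higher and 17 lower, which is 54.4% of the untreated calls and 17.5% of the 211 calls under H2O2. Those were 124 higher (1.7%) and 87 lower (1.19%), 2.89% of nuclear probe sets. The median difference of the genes higher without treatment was 0.89 there and 0.70 under H2O2, and that of the genes lower was -0.67 and -0.49. The shared calls were 9 without Zat12 replicate 1, 15 without Zat12 replicate 2, 17 without wildtype replicate 1 and 21 without Zat12 replicate 3 or Zat12 H2O2 replicate 2. They were 24 when wildtype H2O2 replicate 3 or Zat12 H2O2 replicate 3 was left out. The interaction, the difference between both genotype effects, was called by limma for 0 of the 68, of which 15 had an unadjusted p below 0.05.

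CCS kept its difference under H2O2, with 132, 121 and 97.8 in wildtype and 456, 446 and 529.7 in Zat12 (log2 difference 2.01). CaS (-0.59), LHCB4.3 (-0.77), AT3G43670 (-0.82), AT2G21640 (-1.01) and AT1G09750 (-1.07) were lower there as well and were called. Of the 22 LEA genes 14 were higher and 0 lower, with a median of 1.17, and AT3G02480 differed by 2.25 with 129, 309.5 and 212 against 1089, 776 and 1115. The interaction of AT3G02480 was 0.85 (limma adjusted p = 0.626). Of the 23 biogenesis probe sets 4 were higher, or 7 with a replicate block over the treated arrays, and all 23 differences were above 0.

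For a few genes called without treatment the difference under H2O2 was near 0. AT5G49440 was at -0.09 there, AT4G17250 at 0.06, AT1G73120 at 0.03 and AT2G39500 at 0.15, and the limma adjusted p of their interactions lay between 0.139 and 0.292. The ZAT12 probe set had 204, 286 and 267 in treated wildtype and 983, 1017 and 1080.5 in treated Zat12. Its genotype difference was 2.03 under H2O2 and 3.43 without treatment, and this interaction of -1.41 was called (limma adjusted p = 0.00145).

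The plastid-encoded calls were not repeated under H2O2. There 0 of the 56 were higher and 3 lower (5.36%), or 5 lower with a replicate block over all 12 arrays, and 25 of the 27 untreated calls had the opposite sign, at a median of -0.36 over the 27. The interaction was called for 12 of the 56, 21.4%, beside 0 of 7289 nuclear probe sets. psaA, for example, had 555, 378 and 291 in treated wildtype and 339, 207 and 205 in treated Zat12, so the treated groups overlapped.

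**Figure D5:**
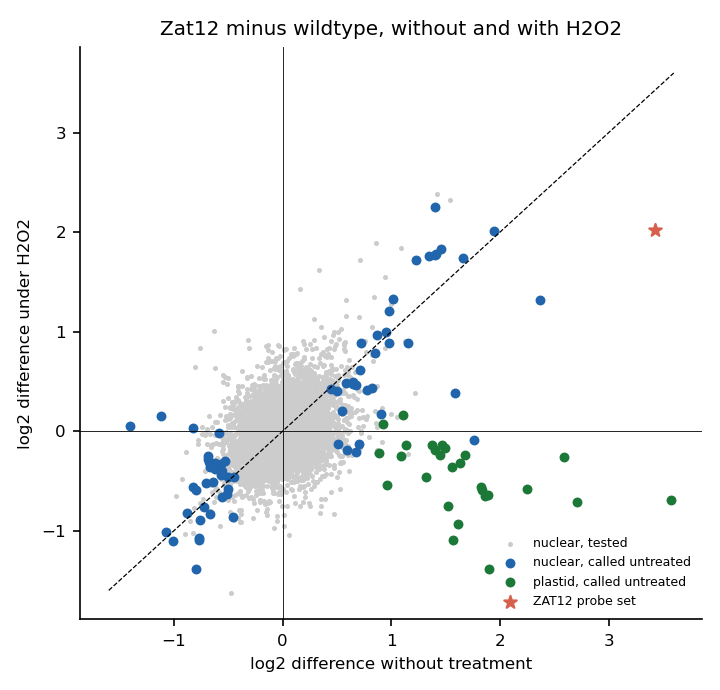
Log2 difference between Zat12 and wildtype under H2O2 (vertical axis) against the same without treatment (horizontal axis), for nuclear probe sets tested (grey), nuclear (blue) and plastid-encoded (green) probe sets called without treatment and the ZAT12 probe set (star), with a dashed line of equal values. Most blue points lie in the quadrants of equal sign, 60 of 68, and 25 of 27 green points lie below 0 under H2O2.

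The response of wildtype to H2O2 shares the untreated wildtype arrays with the genotype comparison, so its values stand beside it as a description only. Of the 34 nuclear probe sets higher in untreated Zat12, H2O2 raised 8 and lowered 1 in wildtype. Of the 34 lower in untreated Zat12, H2O2 raised 1 and lowered 17. Over all nuclear probe sets H2O2 raised 8.31% and lowered 11.8%. Of the 27 plastid-encoded probe sets higher in untreated Zat12, H2O2 raised 27 and lowered 0 in wildtype. Over all 56 plastid-encoded probe sets tested it raised 45, which is 80.4%, and lowered 0.

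The counts of calls rested on single arrays. Without Zat12 replicate 1, 5 nuclear probe sets were higher and 9 lower, in place of 34 and 34. The counts were 11 and 13 without wildtype replicate 1. With Zat12 replicate 2 left out they were 13 and 11, with Zat12 replicate 3 left out 20 and 20, and 56 and 39 with wildtype replicate 3 left out. The lower count was 19 when wildtype H2O2 replicate 3 was left out and 22 when Zat12 H2O2 replicate 2 was. With the 25S covariate 11 were higher and 8 lower. The calls of CCS, AT3G54940, AT3G43670, CaS, LHCB4.3, AT2G21640, AT1G09750 and the ZAT12 probe set were kept in every alternative run at the same threshold.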

How the data were processed

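The deposited values are microarray intensities on Affymetrix ATH1 arrays, the linear signal of MAS5, per the submitters' processing notes. The authors had scaled each array, as the values show: the mean signal with 2% of values trimmed at each end was 100.0 on all arrays, and medians ran from 40.7 to 44.9. The version of MAS5 is not given in the sources used here. Of 22746 probe sets 13513 had 1 gene in the platform annotation, 503 several and 8730 none, and 13436 of the 13513 genes were found in RefSeq (TAIR10.1). The probe set of ZAT12, which that annotation leaves without a gene, was identified by its ID. No coordinates were used because the values name no genome build.

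Python 3.11.15 with pandas 2.3.3 and numpy 2.4.6 prepared the tables and matplotlib 3.10.9 the plots. limma 3.58.1 in R 4.3.3 fitted log2(signal + 3) over the 12 arrays in 4 groups, letting the prior variance follow the mean signal (9.12 prior degrees of freedom). Probe sets with a mean above the 40th percentile (signal 28.1) were tested, and p-values were adjusted by Benjamini-Hochberg over the 13647. Empty cells were left empty. Precision is limited by 3 arrays per group. Named were the ZAT12 probe set, the 15 called nuclear probe sets with the largest difference in each direction, 1 gene and no overlap of groups, 6 plastid-encoded ones chosen alike, the 2 highest and 2 lowest without a gene, and up to 4 members of each list or 3 of each family; further members were chosen after their values were seen. Members and lists were chosen with earlier results of these data known, and the LEA and ribosome biogenesis lists after values were seen. Of 288 genes in the 17 planned lists 66 had a named probe set. The fit was also run on simulated arrays with planted changes, and the share it recovered is not reported here. Their noise was independent between probe sets, without shifts of whole arrays, so they do not show how the fit handles such shifts. Alternatives covered the offset, the filter, the trend, the 6 arrays alone, scaling, complete probe sets, a stricter threshold, the 25S signal as a covariate, a replicate block, and leaving out each array; a fit without plastid-encoded probe sets was added after seeing the data. Same-numbered treated wildtype and Zat12 arrays deviated together from their group means at 0.12, 0.15 and 0.13, every pair above 0.1. Same-numbered untreated and treated Zat12 arrays had 0.08, 0.12 and 0.23, and those with different numbers at most 0.013. Same-numbered untreated and treated wildtype arrays had 0.11, 0.05 and -0.06. Untreated wildtype replicate 3 and Zat12 replicate 2, with different numbers, reached 0.21, so such values alone do not settle whether the numbers pair arrays. In case the numbers do pair the treated arrays, the comparison under H2O2 was repeated with a replicate block. That repeat was added after seeing the data.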

Additional observations from a re-analysis of the deposited data

Results flagged for a closer look

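For 7 named probe sets the difference between the genotypes itself differed between treated and untreated seedlings, by limma's interaction contrast at an adjusted p below 0.05. The genotype difference under H2O2 minus the one without treatment was -4.27 for psaA, -3.42 for psbC, -3.28 for psbT, -2.85 for petL, -2.83 for psaB and -2.53 for atpH, all plastid-encoded, on the log2 scale. It was -1.41 for the ZAT12 probe set. All 7 contrasts use the untreated wildtype arrays.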

How the results depend on the processing

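The ZAT12 difference stayed called throughout, at 3.22 to 3.55, and 3.39 to 3.47 with an array left out. Nuclear counts higher and lower, 34 and 34, were 14 and 12 with no filter on low signal, 13 and 11 with no trend, 19 and 13 on the 6 untreated arrays, 6 and 9 at an adjusted p below 0.01, and 11 and 8 with the 25S covariate; with an array left out they ran from 5 to 56 and from 9 to 39. The 27 plastid-encoded calls became 9 with no filter, 12 with no trend, 11 at the stricter threshold and 4 with the covariate, and 6 to 34 with an array left out; their median ran from 0.66 to 1.13. The 37 nuclear calls shared with H2O2 became 17 with no filter, 16 with no trend, 11 at the stricter threshold and 17 with the covariate, and 9 to 42 with an array left out. The cause was not tested. Without plastid-encoded probe sets, an alternative added after seeing the data, 28 nuclear probe sets were higher and 26 lower. Over all tested probe sets, 99 higher and 68 lower became 37 and 23 with no filter. Same-numbered untreated arrays did not deviate together, at -0.03, -0.25 and -0.13, so their numbers give no pairing. With the replicate number as a block 35 and 35 nuclear and 29 plastid-encoded probe sets were called, their plastid median was 0.97, 41 calls were shared with H2O2 and ZAT12 stayed at 3.43. A replicate block over the treated arrays, added after seeing the data, gave 147 nuclear probe sets higher and 102 lower under H2O2 and 14 plastid-encoded interactions. Of 1717 values of named probe sets under alternatives, 1472 kept direction and side of the threshold, 233 lost and 12 gained a call, and 0 reversed. The 1472 include uncalled probe sets that stayed uncalled. Of 48 named probe sets called in the main fit, ZAT12 included, 16 stayed called in every alternative that tested them at the same threshold. Without Zat12 replicate 1, 19 of the 48 stayed called.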
